A study of Xenopus tropicalis with 31 samples.

Results

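Cells sorted for a pax6 reporter from the regenerated tadpole tail, 3 days after amputation, were compared with those of the intact tail by ATAC-Seq. The study takes the sorted cells as neural progenitor cells. The comparison holds 5 of the 31 libraries of the series: 3 samples of pax6 cells at 72 hours post amputation (72hpa) and 2 samples of pax6 cells from uninjured tails. An uninjured library, replicate 3, holds 143 counts in all and was left out. ATAC-Seq inserts sequencing adapters with a transposase where DNA is open, so that the number of fragments in a window measures its accessibility. Counts were read in 400 bp windows, each around the summit of a peak called on all libraries together. Of the 124338 windows tested, 1912 had an unadjusted p under 0.01 in the comparison. These are called ranked windows here, because none of them passed correction for multiple tests.

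All samples carry the label of a transgenic Xenopus tropicalis line (Xtr.Tg) with the reporters pax6:GFP, cryga:RFP and actc1:RFP, although the headers of the count table call the all-tissue columns WT. The pax6 promoter drives GFP, and the promoters of a lens crystallin and of a muscle actin drive RFP. The posterior part of the tail was amputated at NF stage 41. At 72hpa the regenerated tail tissue was collected, tails were pooled and dissociated, and GFP+ cells were sorted as pax6 cells, with gates set on wild-type tadpoles. The sort may miss progenitors without GFP. It may also hold neurons that keep GFP, a limit the study gives. In the study's single-cell RNA-Seq of cells sorted in a like way, most of the cells sequenced did not fall into neural clusters. This held in the uninjured sample and in the regenerating one, which was taken before 72hpa. The study describes the clusters as enriched for the neural lineage but not limited to it. The all-tissue samples, 3 at 72hpa and 3 uninjured, were made from tail cells of all kinds. The uninjured samples were the tail tips cut off at that stage, so that the tadpoles at 72hpa were older than those of the uninjured samples, and regeneration and age cannot be told apart. Replicates are separate samples by their labels, and p-values measure the spread between them. In the main fit this spread was estimated over all 13 pax6 samples in 5 groups, and not over the 5 compared samples alone.

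Pax6 is a paired box transcription factor of neural progenitors, which line the central canal of the spinal cord and divide to make neurons and glia. In Xenopus tadpoles these cells grow back into a regenerating tail and form a new cord. Promoters, at transcription start sites (TSS), are commonly open in many cell types, whereas enhancers, which can lie far from the gene they control, tend to be open in fewer of them. The nearest gene of a window is therefore a label of its position and not a known target.

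Total counts were 10201107 and 4003833 in uninjured replicates 1 and 2, and 5840622, 7054316 and 5131459 in 72hpa replicates 1, 2 and 3. The median window held between 19 and 49 counts in these samples. Uninjured replicate 2 and 72hpa replicate 3 stood apart from the other samples. Across windows, the log2 counts scaled to a common library size (CPM, normalized by TMM factors) of uninjured replicate 1 and 72hpa replicates 1 and 2 correlated with one another at r = 0.90 to 0.93. The correlations of uninjured replicate 2 with the other 4 samples were 0.76 to 0.85, and those of 72hpa replicate 3 were 0.76 to 0.84. Windows are not independent replicates, and all 5 samples share the same windows. Of the 57 named windows that were ranked, 24 had a p of 0.01 or more without uninjured replicate 2, 15 without 72hpa replicate 3, and 16, 11 and 7 without uninjured replicate 1 and 72hpa replicates 1 and 2.

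The labelled cell type was checked with windows within 5 kb of the TSS of marker genes. Of 20 neural progenitor markers, 16 had such a window, and none of their 25 windows was at 0 in all 5 samples. In the uninjured samples 10 of these 25 windows were higher in pax6 cells than in all-tissue cells, with a median log2 difference of −0.05, and at 72hpa again 10 of 25 were higher, with a median of −0.09. The summed level of these windows was 108 to 127 CPM in uninjured pax6 samples and 134 to 149 CPM at 72hpa, beside 119 to 122 CPM and 133 to 152 CPM in all-tissue samples. In either tissue all 72hpa samples were above all uninjured samples in this sum. The same held for the 10 windows at blood and vessel markers. They summed to 49.3 to 51.2 CPM in uninjured and 52.0 to 55.8 CPM in 72hpa pax6 samples. In all-tissue samples they summed to 48.9 to 50.3 CPM and 52.4 to 66.1 CPM. The rise was thus not particular to progenitor markers. Of 18 windows at epidermis markers, 4 were higher in pax6 cells at either time. Their summed level was 92.4 to 104 CPM in uninjured and 95.3 to 105 CPM in 72hpa pax6 samples, and 113 to 122 CPM and 114 to 144 CPM in all-tissue samples. Skeletal muscle windows summed to 58.5 to 60.1 CPM and 53.0 to 67.9 CPM in the pax6 samples. Of 22 windows at neuron markers, 13 were higher in pax6 cells in uninjured samples (median log2 difference 0.08) and 9 at 72hpa (median −0.06). Of 9 windows at notochord markers 4 were higher in pax6 cells at either time. Of 7 at neural crest and pigment markers 3 were higher in uninjured samples and 0 at 72hpa. The accessibility of progenitor marker windows thus did not set the sorted cells apart from whole tail cells. Windows at markers of other cell types held counts in them too, which does not by itself make those windows open. For the identity of the sorted cells the study gives other evidence. It reports raised pax6 and GFP transcripts by qRT-PCR, and neural terms among regions more accessible in pax6 libraries. The part of other cell types in the results below was not tested, and a change in the share of a cell type cannot be told apart from a change within cells.

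No window differed between pax6 cells at 72hpa and uninjured pax6 cells in the quasi-likelihood test of edgeR after adjustment over all windows (adjusted p under 0.05 in 0 of 124338, 0%). The smallest adjusted p was 0.226. At an unadjusted p under 0.05, 8664 windows (6.97%) differed, and at p under 0.01 there were 1912 (1.54%). Of these 1033 (0.831%) were higher and 879 (0.707%) were lower at 72hpa. With the same samples, DESeq2 called 11 windows at an adjusted p under 0.05, 8 higher and 3 lower, and edgeR's likelihood ratio test also called 11, 8 higher and 3 lower. Both tools called 6 windows in common. With the quasi-likelihood fit limited to the 5 samples compared, 616 windows had a p under 0.01 and 0 an adjusted p under 0.05.

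The ranked windows were of modest size. The median log2 fold change was 0.91 in the higher set, which spanned 0.43 to 1.90, and −0.88 in the lower set, which spanned −2.07 to −0.40. Past a fold of 2 were 376 higher windows (36.4%) and 320 lower windows (36.4%), beside 0.999% of all windows in either direction. Among all windows, the 3 samples at 72hpa lay above both uninjured samples in 12346 (9.93%) and below both in 12425 (9.99%). The 5 samples can be split 3 against 2 in 10 ways, equally likely where the groups do not differ. The shares of all windows are near that of a single split, so that separate groups in a window are by themselves no sign of a change. In the ranked windows the groups did not overlap in 997 of 1033 higher and 817 of 879 lower windows, which follows in part from the ranking. The median window level was 6.51 CPM in the higher set and 6.30 CPM in the lower set, beside 5.14 CPM over all windows. The median summit score, a −log10 q-value of the authors' peak caller, was 7.09 and 6.33 beside 5.23.

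The plot of the ranked windows in every sample shows how the 5 samples and the remaining pax6 samples lie. Levels are given as log2(CPM + 0.5) minus the mean of the groups, and the median over windows is taken in each sample. In the higher set this was −0.31 and −0.72 in uninjured replicates 1 and 2, and 0.30, 0.25 and 0.55 in 72hpa replicates 1, 2 and 3. In the lower set it was 0.23 and 0.65, and then −0.28, −0.29 and −0.50. The extreme sample on either side was the library that stood apart. The mean of 72hpa exceeded uninjured replicate 1 by a median of 0.67 and uninjured replicate 2 by 1.08 in the higher set, and the medians were −0.63 and −1.05 in the lower set.

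**Figure D1:**
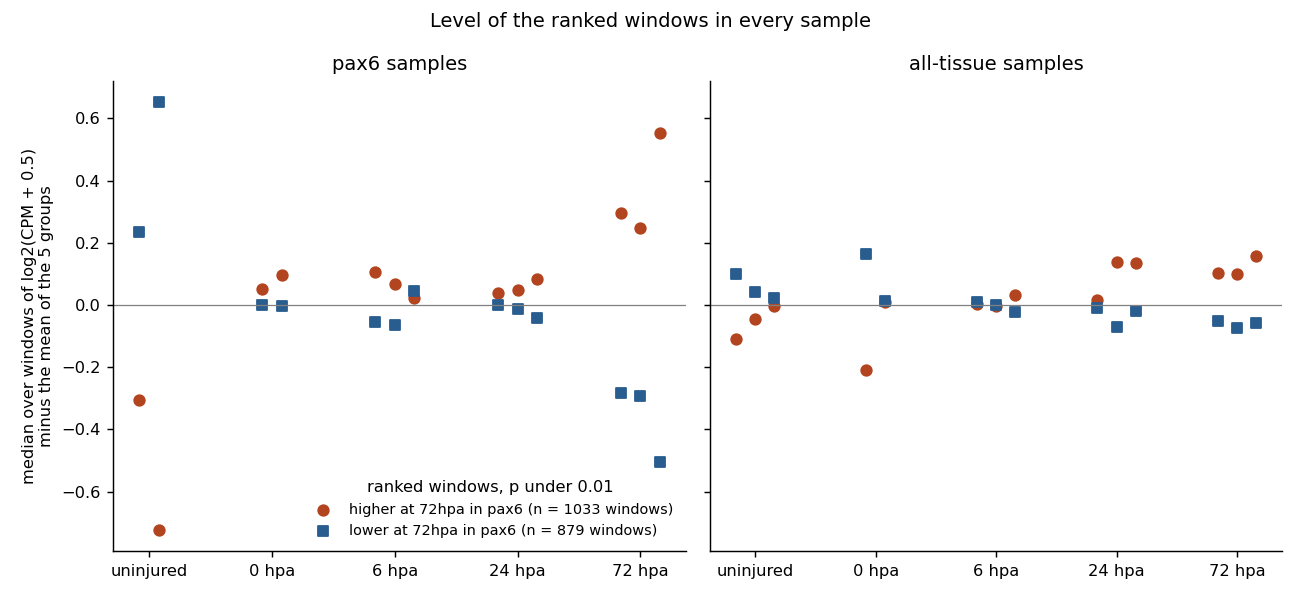
The median over ranked windows of log2(CPM + 0.5), minus the mean of the 5 groups of a tissue, is plotted for each sample, with pax6 samples in the left panel and all-tissue samples in the right one. Each point is 1 sample, and the 2 marker types are the 1033 higher and 879 lower windows. The pax6 medians run from −0.72 in uninjured replicate 2 to 0.55 in 72hpa replicate 3 in the higher set. The all-tissue samples spread less, which is in part built in, because the windows were ranked on pax6 samples.

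The windows that were higher at 72hpa lay at promoters more often than the lower ones. Of the 983 higher windows with an annotated gene, 240 (24.4%) lay within 500 bp of a TSS, and 47 of the 801 lower windows (5.87%) did, beside 9.18% of all annotated windows. A TSS lay within the window in 174 higher and 16 lower windows. The median distance to the nearest TSS was 8901 bp in the higher and 14165 bp in the lower set, beside 16530.5 bp over all windows. Read from the side of the promoters, 2.23% of the 10774 windows within 500 bp of a TSS were ranked higher and 0.436% ranked lower. Between 500 bp and 5 kb these shares were 0.809% and 0.871%, between 5 and 50 kb 0.684% and 0.729%, and beyond 50 kb 0.644% and 0.541%. An unequal share of higher and lower windows was thus largest at promoters. Of the promoter windows 63.3% had a log2 fold change above 0, with a median of 0.13.

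This pattern rested largely on uninjured replicate 2. Without that sample, 66 promoter windows (0.613%) were ranked higher and 30 (0.278%) lower, and 16.9% of the higher and 10.3% of the lower windows lay within 500 bp of a TSS. Without uninjured replicate 2 and 72hpa replicate 3 these shares were 12.4% and 11.3%. The share of all counts that fell within 500 bp of a TSS shows the same sample. It was 8.14% and 6.91% in uninjured replicates 1 and 2, and 8.13%, 8.12% and 8.39% in 72hpa replicates 1, 2 and 3. Wilson intervals of these shares, at a confidence level of 95%, reached at most 0.0248 percentage points to either side and cover counting error only. Uninjured replicate 1 lay inside the range of the 72hpa samples, and uninjured replicate 2 was below the other 12 pax6 samples of all times, which ran from 7.97% to 8.80%. The group means were 8.21% ± 0.15 (SD, n = 3) at 72hpa and 7.52% ± 0.87 (SD, n = 2) in uninjured cells, and the difference did not pass an exact permutation test (two-sided p = 0.6, where 0.2 is the smallest p that 3 against 2 samples allow). Windows beyond 50 kb held 18.1% ± 0.07 (SD, n = 3) and 18.0% ± 0.34 (SD, n = 2) of the counts (two-sided exact permutation p = 0.8).

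**Figure D2:**
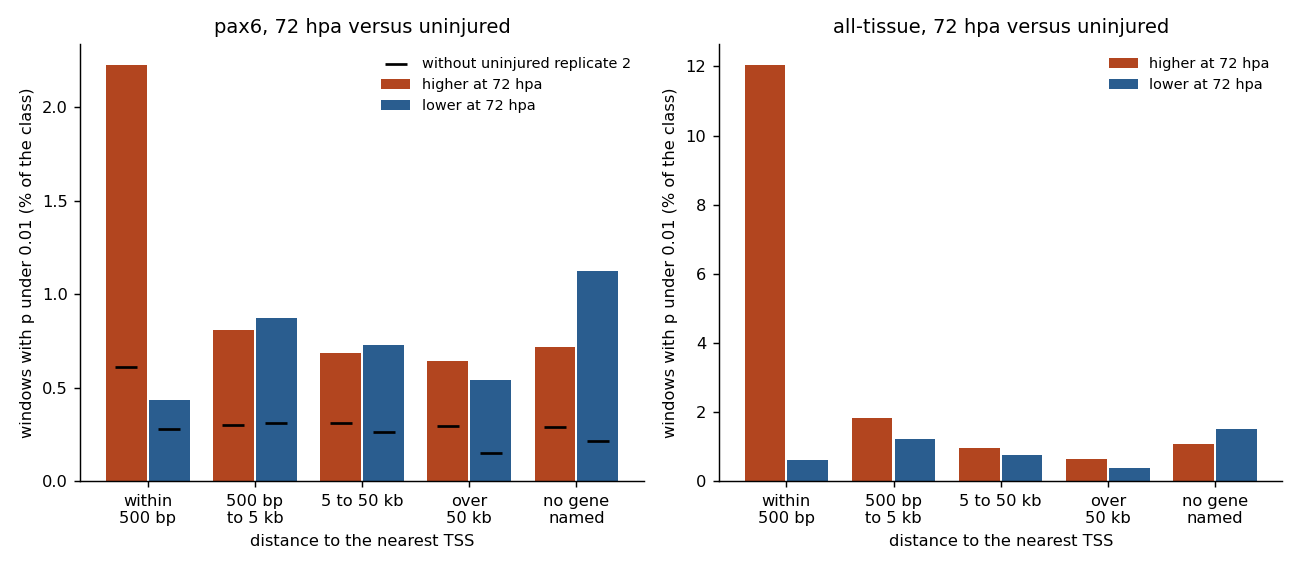
The share of windows with an unadjusted p under 0.01 (% of the class, vertical axis) is drawn for classes of distance to the nearest TSS, as bars for windows higher and lower at 72hpa, in pax6 cells and in all-tissue cells, with short black lines for the pax6 comparison without uninjured replicate 2. Within 500 bp the higher share is 2.23% in pax6 cells with all samples and 0.613% without that replicate, and it is 12% in all-tissue cells.

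The ranked windows also differed by the kind of sequence they lay on. Unplaced scaffolds held 22.1% of the higher and 34.7% of the lower windows, beside 24.3% of all windows. No gene was annotated for 4.84% of the higher and 8.87% of the lower windows, beside 5.58% of all. All windows without a gene had a median log2 fold change of −0.05, and of −0.0001 without uninjured replicate 2. The lean of these windows to the lower side thus rested largely on that sample. Gene models without a gene name were nearest to 26.4% and 33.1%, beside 30.1%. The 1033 higher windows were nearest to 928 genes and the 879 lower windows to 734 genes.

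Of the 12 higher windows with the smallest p and separate groups, those nearest to a named gene lay at slc6a13, ccnt2 and syncrip. Separate groups were a condition of this choice and are not a result. The window at slc6a13, which encodes a GABA transporter of the plasma membrane, lies 17705 bp from the TSS on scaffold_135:150057-150456 (coordinates of X. tropicalis genome version 9.0, here and below). It measured 7.58 and 5.62 CPM in uninjured replicates 1 and 2, and 15.5, 13.6 and 21.0 CPM in 72hpa replicates 1, 2 and 3. The log2 fold change was 1.26 ± 0.23 (SE, adjusted p = 0.287). The window over the TSS of ccnt2, a cyclin partner of the kinase that releases RNA polymerase II into elongation, lies at chr9:79119504-79119903. It measured 3.45 and 2.04 CPM in uninjured samples and 5.67, 9.27 and 13.5 CPM at 72hpa. The spread at 72hpa exceeded that of the uninjured samples, and the log2 fold change was 1.65 ± 0.32 (SE, adjusted p = 0.354). At syncrip, which encodes an RNA-binding protein of the hnRNP family, a window 908 bp from the TSS (chr5:87407832-87408231) measured 2.95 and 2.81 CPM in uninjured cells and 6.88, 6.74 and 8.70 CPM at 72hpa. Both groups were tight here, with a log2 fold change of 1.34 ± 0.29 (SE, adjusted p = 0.467).

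The other 9 of the 12 higher windows with the smallest p lay near unnamed gene models or no gene. The window with the smallest p of the higher set lies 2754 bp from the TSS of the model Xetrov90023184m.g (chr9:11233882-11234281). It measured 13.4 and 8.43 CPM in uninjured samples and 25.4, 23.0 and 22.7 CPM at 72hpa, with a log2 fold change of 1.04 ± 0.19 (SE, adjusted p = 0.287). The window of LOC100488271, 8125 bp from its TSS, measured 6.50 and 5.36 CPM and then 15.1, 11.9 and 13.3 CPM. The choice by smallest p favours windows that stay ranked when a sample is left out. Over the 12 windows the log2 fold change ran from 0.92 to 1.65, and all 12 stayed at p under 0.01 when any of the 5 samples was left out.

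The 12 lower windows with the smallest p and separate groups included windows at phox2a, kbtbd4, sbno1, dok5, wdr91 and a pank2-like gene, and their log2 fold changes ran from −1.81 to −0.62. The others lay near unnamed gene models or no gene. As in the higher set, separate groups were a condition of the choice. The lowest p of all windows, 1.82e-06 (adjusted p = 0.226), was that of a window on scaffold_3811:569-968 for which no gene is annotated. It measured 74.5 and 102 CPM in uninjured samples and 49.5, 47.0 and 32.8 CPM at 72hpa. The log2 fold change was −1.01 ± 0.17 (SE). The window at phox2a, a homeobox factor of noradrenergic and cranial motor neurons, lies 11421 bp from the TSS on scaffold_174:60292-60691. It measured 14.4 and 22.2 CPM in uninjured samples and 9.80, 10.8 and 5.93 CPM at 72hpa, with a log2 fold change of −0.96 ± 0.21 (SE, adjusted p = 0.478). At kbtbd4, which encodes a substrate adaptor of a cullin ubiquitin ligase, the window 20563 bp from the TSS (chr4:7905840-7906239) held far more counts than most. It measured 889 and 924 CPM in uninjured samples and 553, 619 and 594 CPM at 72hpa. The difference of this deeply covered window was small and even over the samples, with a log2 fold change of −0.62 ± 0.14 (SE, adjusted p = 0.496).

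Further lower windows were found at genes of several kinds. At sbno1, whose fly counterpart strawberry notch takes part in Notch signalling, a window 13106 bp from the TSS (chr1:152499187-152499586) measured 5.22 and 5.88 CPM in uninjured samples and 2.23, 1.26 and 1.38 CPM at 72hpa. The log2 fold change was −1.75 ± 0.36 (SE, adjusted p = 0.413), and the uninjured samples were close to each other. At dok5, an adaptor of receptor tyrosine kinases, a window 93305 bp from the TSS (chr10:26081648-26082047) measured 3.74 and 6.13 CPM and then 0.516, 1.83 and 1.58 CPM. The level at 72hpa was low, and the log2 fold change of −1.81 ± 0.42 (SE, adjusted p = 0.504) rests on few counts. At wdr91, a gene of endosome maturation, the window 130 bp from the TSS on scaffold_150:300485-300884 measured 32.0 and 28.1 CPM in uninjured samples and 17.2, 20.2 and 17.6 CPM at 72hpa. It was among the few promoter windows of the lower set, at a log2 fold change of −0.72 ± 0.17 (SE, adjusted p = 0.504). At the gene annotated as pank2-like, named after a kinase of coenzyme A synthesis, the window 652 bp from the TSS measured 35.9 and 65.9 CPM and then 32.1, 25.6 and 20.6 CPM. Here the uninjured samples differed from each other as much as the groups did, and without uninjured replicate 2 the p was 0.0292.

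**Figure D3:**
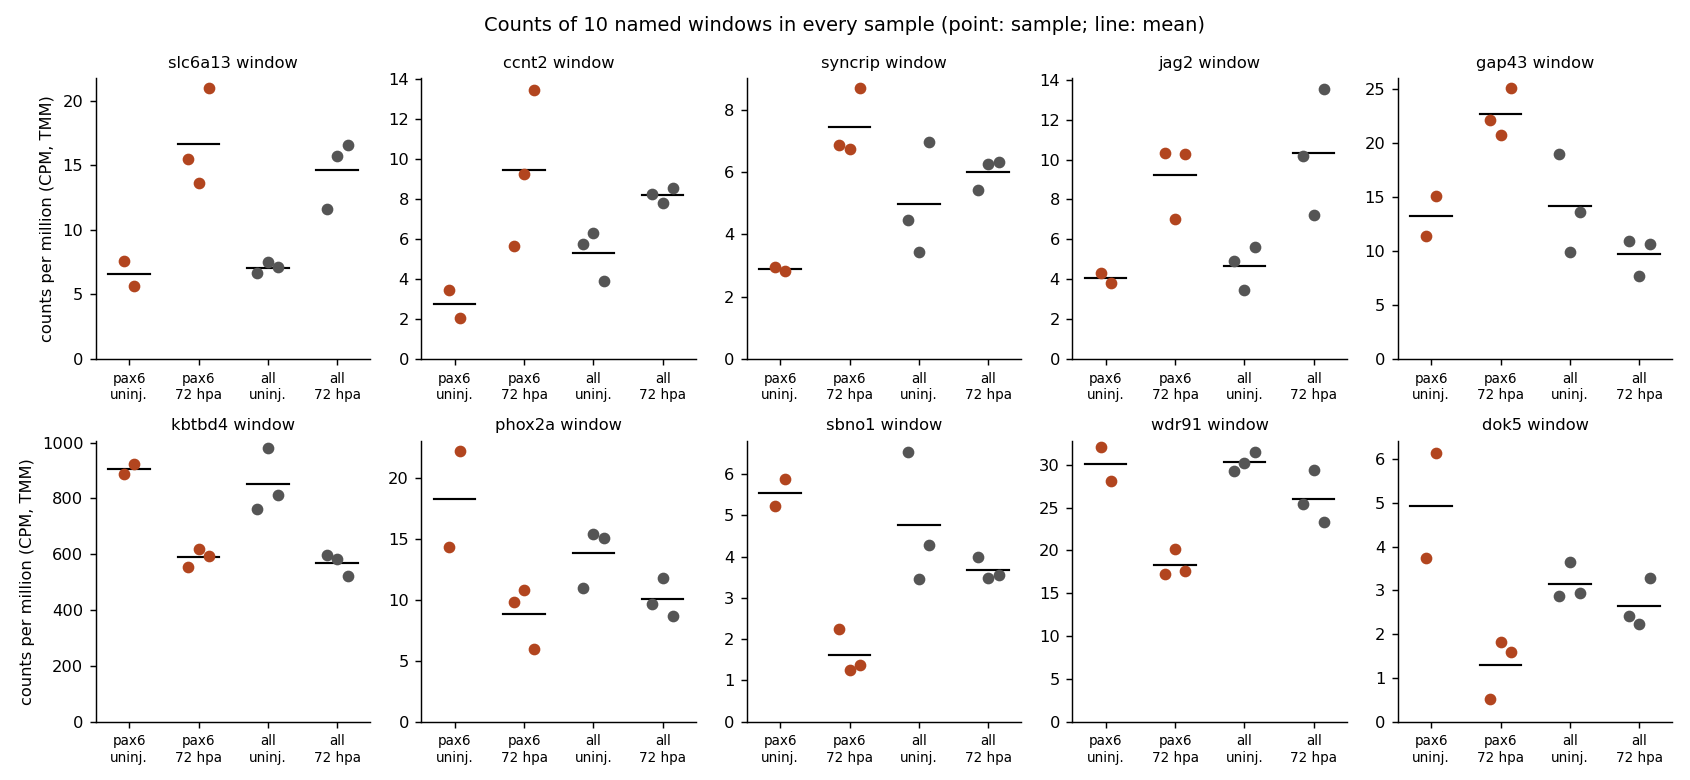
CPM (vertical axis, from 0) of 10 named windows in each sample of uninjured and 72hpa pax6 cells and of uninjured and 72hpa all-tissue cells, with a point for a sample and a line for the group mean. The slc6a13 window runs from 5.62 and 7.58 CPM in uninjured pax6 cells to 13.6 to 21.0 CPM at 72hpa with all-tissue samples alongside, whereas the gap43 window is higher at 72hpa in pax6 cells and lower in all-tissue cells.

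How far the ranking depended on single samples is shown by the plot of ranked windows with each sample left out. The number of ranked windows was 717 without uninjured replicate 2 and 6538 without uninjured replicate 1, in fits where the lone uninjured sample is assumed to vary like the other groups. It was 2391, 2659 and 1743 without 72hpa replicates 1, 2 and 3. Of the 1033 higher windows 220 (21.3%) and of the 879 lower windows 165 (18.8%) stayed ranked without uninjured replicate 2. A total of 73 higher and 46 lower windows stayed ranked whichever sample was left out, and 22 of the 24 windows named by their rank were among them. Of the ranked windows named only from the gene lists, those at jag2 and rspo2 were among them. The log2 fold changes of all ranked windows kept their sign in these fits, other than 2 lower windows without uninjured replicate 2. Without uninjured replicate 1, 1129 windows passed the adjusted test, whereas 0 did without uninjured replicate 2.

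**Figure D4:**
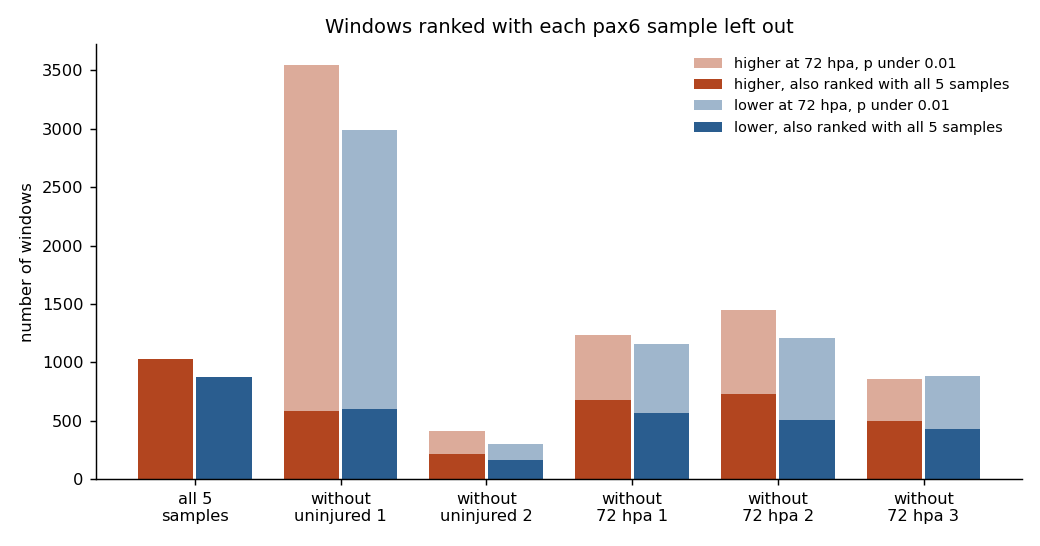
Number of windows with an unadjusted p under 0.01 (vertical axis) with all samples and with each of the 5 samples left out, as pale bars for all such windows and dark bars for those that are also ranked with all samples. Without uninjured replicate 2 the dark bars fall to 220 higher and 165 lower windows.

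Pathway and cell type genes were read from 25 lists, by the nearest gene of each window. No window of any list passed the adjusted test, and between 0% and 3.45% of the windows of a list were ranked, beside 1.54% of all windows. Among signalling pathways, Notch genes had 3 ranked windows of 131, all higher, and the members of the BMP and TGF-beta list had 6 of 362, all higher. Of the 454 windows of Wnt genes 3 were ranked higher and 5 lower, of the 279 of FGF genes 3 and 1, of the 132 of hedgehog genes 1 and 3, and of the 116 of retinoic acid genes 1 and 0. The median log2 fold change of these 6 lists lay between −0.03 and 0.09. The ranked windows were thus a small part of each list, and the lists as a whole were near the median of all windows.

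Of the Notch genes, the ligand jag2 gave the clearest window, 105 bp from its TSS (chr8:80053305-80053704). It measured 4.33 and 3.83 CPM in uninjured samples and 10.3, 7.02 and 10.3 CPM at 72hpa. The groups were separate, with a log2 fold change of 1.13 ± 0.28 (SE, adjusted p = 0.504), and the window stayed ranked in each fit without 1 sample. The other Notch windows, over the TSS of the Notch target hes4 and of lfng, whose product adds sugars to Notch receptors, were chosen after their values were seen. Their log2 fold changes were 1.03 and 0.72. At notch1, a receptor, the window with the smallest p on the lower side had a log2 fold change of −0.57 ± 0.21 (SE, adjusted p = 0.654) and was not ranked.

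Wnt genes had ranked windows in either direction. At rspo2, which encodes a secreted enhancer of Wnt signalling, the window 1622 bp from the TSS (chr6:116530993-116531392) measured 4.24 and 3.07 CPM in uninjured samples and 9.28, 9.27 and 6.53 CPM at 72hpa, with a log2 fold change of 1.14 ± 0.31 (SE, adjusted p = 0.504). All 72hpa samples were higher. At axin2, a feedback inhibitor of the pathway and one of its best known targets, the window 6053 bp from the TSS measured 9.36 and 12.3 CPM in uninjured samples and 5.84, 6.74 and 4.55 CPM at 72hpa, with a log2 fold change of −0.86 ± 0.23 (SE, adjusted p = 0.504). All 72hpa samples were lower here, and the p was 0.0129 without uninjured replicate 2. The other ranked Wnt windows, picked after their values were seen, were higher at the ligand wnt7b and the receptor fzd10, and lower at wnt6, wnt5a and the inhibitors notum and nkd1.

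Of the hedgehog windows, 3 were ranked lower and 1 higher, while the median of the list was 0.08. At gli2, a transcription factor of the pathway, a window 36869 bp from the TSS measured 5.32 and 7.41 CPM in uninjured samples and 2.41, 3.09 and 3.16 CPM at 72hpa, with a log2 fold change of −1.08 ± 0.31 (SE, adjusted p = 0.548), and a p of 0.0189 without uninjured replicate 2. Windows at the receptor ptch1 and the inhibitor hhip, chosen after their values were seen, were also ranked lower. At gli3, which acts mainly as a repressor, a window 134456 bp from the TSS measured 3.94 and 5.11 CPM and then 6.36, 6.88 and 10.3 CPM. This was the single higher window of the list, at a log2 fold change of 0.83 ± 0.30 (SE, adjusted p = 0.649), and its p was 0.164 without uninjured replicate 1. In the BMP and TGF-beta list the named window was at id2, a target gene whose product inhibits bHLH transcription factors. The window 623 bp from its TSS (chr5:133526178-133526577) measured 4.73 and 2.81 CPM in uninjured samples and 10.8, 6.46 and 8.31 CPM at 72hpa, with a log2 fold change of 1.06 ± 0.28 (SE, adjusted p = 0.504), and a p of 0.0117 without uninjured replicate 2. The remaining 5 higher windows lay nearest to smad2, gdf6, bmpr2, acvr2b and nog, where nog encodes an inhibitor of BMP ligands. Except for nog, these were picked after their values were seen.

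Genes of patterning and of cell identity gave single windows. At hoxc13, a posterior Hox gene, the window over the TSS (chr2:143026469-143026868) measured 3.15 and 3.32 CPM in uninjured samples and 9.11, 5.90 and 6.13 CPM at 72hpa, with a log2 fold change of 1.13 ± 0.31 (SE, adjusted p = 0.525). The groups were separate, the p was 0.0245 without uninjured replicate 1, and 2 of the 77 Hox windows were ranked, both higher and both at hoxc13. Of the 281 windows of spinal cord patterning factors 2 were ranked, both higher (0.712%, beside 1.54% of all windows). The lower window of that list with the smallest p, at gata3, was not ranked (log2 fold change −0.99 ± 0.41, SE, adjusted p = 0.670). At msx1, a homeobox gene of the dorsal cord and of regenerating tissues, a window 6145 bp from the TSS measured 2.76 and 2.55 CPM in uninjured samples and 5.50, 5.48 and 5.34 CPM at 72hpa. Replicates of either group lay close together, with a log2 fold change of 1.01 ± 0.30 (SE, adjusted p = 0.556), and the p was 0.0228 without uninjured replicate 1. At mycn, a proliferation gene, the window 141202 bp from the TSS measured 4.33 and 7.15 CPM and then 1.38, 2.39 and 2.77 CPM. Its log2 fold change was −1.31 ± 0.35 (SE, adjusted p = 0.504), with a p of 0.0173 without uninjured replicate 2. A nearer mycn window, 39378 bp from the TSS, lay the other way. It measured 18.4 and 16.3 CPM in uninjured samples and 22.2, 27.5 and 23.1 CPM at 72hpa. Its log2 fold change was 0.47 ± 0.18 (SE, adjusted p = 0.660), and it was not ranked. Of the 141 windows of cell cycle genes 0 were ranked higher and 2 lower (1.42%, beside 1.54% of all windows). Of the 34 chromatin regulator genes, 26 had a window, and 2 of their 150 windows were ranked higher and 1 lower (2% in either direction). The higher one with the smallest p lay over the TSS of smarcd1, a subunit of the BAF remodelling complex, at a log2 fold change of 0.90 ± 0.29 (SE, adjusted p = 0.593), and the lower one at eed, a Polycomb subunit, at −1.23 ± 0.39 (SE, adjusted p = 0.593). Without 72hpa replicate 1 the p was 0.0454 for the smarcd1 window and 0.0133 for the eed window in the same test. The p of the smarcd1 window was 0.0156 without uninjured replicate 2, and that of the eed window 0.142 without uninjured replicate 1.

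Of the windows of neural progenitor genes 1.37% were ranked, and of those of neuron genes 2.99%, beside 1.54% of all windows. No test of either list as a whole was run. Of 146 windows of neural progenitor genes, 1 was ranked higher and 1 lower, with a median log2 fold change of 0.03. At the 25 windows within 5 kb of a progenitor TSS the summed level was higher at 72hpa, as given above, and so was that at blood and vessel markers. The ranked higher window, 261 bp from the TSS of msi1, an RNA-binding protein of neural stem cells, measured 6.80 and 1.53 CPM in uninjured samples and 8.77, 7.30 and 11.1 CPM at 72hpa. Its log2 fold change of 0.86 ± 0.31 (SE, adjusted p = 0.649) rested on uninjured replicate 2, without which it was 0.39 with a p of 0.161. The ranked lower window, 38041 bp from the TSS of sox9, a factor of progenitors and glia, measured 5.91 and 4.09 CPM and then 2.06, 3.37 and 0.791 CPM, with a log2 fold change of −1.25 ± 0.42 (SE, adjusted p = 0.630), and a p of 0.147 without uninjured replicate 1. Of the 134 windows of neuron genes 3 were ranked higher and 1 lower. None of the 36 windows of skeletal muscle genes was ranked, a list too short to set against the share of all windows.

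The neuron list turned on gap43, a protein of growing axons. A window 38039 bp from its TSS (chr2:1089848-1090247) measured 11.4 and 15.1 CPM in uninjured samples and 22.2, 20.8 and 25.1 CPM at 72hpa, with a log2 fold change of 0.81 ± 0.22 (SE, adjusted p = 0.504) and a p of 0.0524 without uninjured replicate 1. A second window 36725 bp from the TSS (chr2:1088534-1088933) measured 29.0 and 37.0 CPM and then 46.1, 50.7 and 56.0 CPM, with a log2 fold change of 0.65 ± 0.19 (SE, adjusted p = 0.548). These neighbours, which share the region, had separate groups in the same direction. In contrast, a window 2130 bp from the TSS, on the other side, measured 4.43 and 5.11 CPM and then 1.03, 2.25 and 3.56 CPM, with a log2 fold change of −1.06 ± 0.39 (SE, adjusted p = 0.649) and a p of 0.0667 without 72hpa replicate 1. The windows of gap43 thus did not share a direction. Of the 432 windows of the separate axon guidance list, 1 was ranked higher and 3 lower (0.926%, beside 1.54% of all windows). The higher one lay 247940 bp from the TSS of nrp1, with a log2 fold change of 0.98 ± 0.34 (SE, adjusted p = 0.644), or 0.65 without uninjured replicate 2. The lower one with the smallest p lay at l1cam. At l1cam, an adhesion molecule of axons, a window 18751 bp from the TSS measured 7.39 and 9.71 CPM in uninjured samples and 5.16, 4.63 and 2.37 CPM at 72hpa, and its log2 fold change was −1.003 ± 0.29 (SE, adjusted p = 0.548), with a p of 0.0154 without uninjured replicate 2.

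The windows nearest the TSS of genes the study follows were not ranked. That of pax6, 2808 bp from the TSS, measured 4.92 and 2.81 CPM in uninjured samples and 6.36, 4.91 and 4.55 CPM at 72hpa, with a log2 fold change of 0.34 ± 0.31 (SE, adjusted p = 0.868). At sox2, a factor of neural stem cells, values were 5.22 and 3.83 CPM and then 7.39, 5.19 and 8.31 CPM, with 0.54 ± 0.29 (SE, adjusted p = 0.743). In both genes the groups overlapped. At meis1, a homeobox cofactor, the log2 fold change of the window 630 bp from the TSS was 0.36 ± 0.32 (SE, adjusted p = 0.862), and at its partner pbx3 the window over the TSS measured 2.46 and 0.766 CPM and then 2.92, 3.37 and 5.54 CPM, with 1.03 ± 0.40 (SE, adjusted p = 0.660). The 72hpa samples at pbx3 were above both uninjured samples, but the difference was 0.65 with a p of 0.133 without uninjured replicate 2. A distal window of meis1, 95273 bp from the TSS, was ranked, at 1.87 and 1.79 CPM in uninjured samples and 2.92, 3.93 and 6.73 CPM at 72hpa (log2 fold change 1.27 ± 0.41, SE, adjusted p = 0.600). Its p was 0.0144 without uninjured replicate 2, 0.0398 without uninjured replicate 1 and 0.0361 without 72hpa replicate 3.

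The study groups 13 genes under neural precursor proliferation, chosen by it on these samples and so no independent evidence. Of their 210 windows 5 (2.38%) were ranked higher and 0 lower, beside 0.831% and 0.707% of all windows. The window at id2 described above was 1 of them. The other 4 ranked windows lay together more than 200 kb from the TSS of cdh2, an adhesion molecule of neural epithelium, and share a region. Another id2 window, 311529 bp from the TSS, was lower at 72hpa with separate groups. Its log2 fold change was −1.11 ± 0.41 (SE, adjusted p = 0.657), and it was not ranked. The cdh2 window with the smallest p, 207649 bp from the TSS (chr6:96362958-96363357), measured 35 and 23.2 CPM in uninjured samples and 43.7, 45.2 and 51.4 CPM at 72hpa. The groups did not overlap, with uninjured replicate 1 closer to the 72hpa samples than replicate 2, and the log2 fold change was 0.64 ± 0.16 (SE, adjusted p = 0.504), or 0.42 with a p of 0.0235 without uninjured replicate 2. The window at the TSS of cdh2 itself was not ranked, at 0.60 ± 0.30 (SE, adjusted p = 0.723).

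A few genes held several ranked windows, which share a region and are not independent. Of the genes with a ranked window, 1503 had 1, 100 had 2 and 23 had 3 or more. The gene with most was LOC100491837, matched by its gene identifier to cyp2c8.1, a cytochrome P450 gene, in RefSeq's annotation of UCB_Xtro_10.0. It was nearest to 50 windows, of which 11 were ranked lower over 145902 bp of chromosome 8 (chr8:97799975-97945876), and 44 had a log2 fold change below 0. The median of its 50 windows, as log2 deviation from the group mean level, was 0.01 and 0.49 in uninjured replicates 1 and 2, and 0.09, −0.21 and −0.26 in 72hpa replicates 1, 2 and 3. Uninjured replicate 2 thus stood alone above the others, and without it 0 of the 50 windows were ranked, with a median log2 fold change of −0.10 in place of −0.39. At lig3, a DNA ligase, 3 of its 4 windows were ranked lower within 1983 bp of chromosome 10, and 0 without uninjured replicate 2. The model Xetrov90004119m.g had 4 higher windows within 12279 bp of chromosome 2, and 3 of these 4 stayed ranked without uninjured replicate 2.

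The same windows were read in the all-tissue samples, which share no library with the pax6 samples. There 136 windows (0.109%) passed an adjusted p under 0.05 between 72hpa and uninjured tails, 105 higher (0.0844%) and 31 lower (0.0249%). This count moved with single libraries. It was 3 without 72hpa replicate 3, 4 without uninjured replicate 1, 6 without uninjured replicate 3, 30 without 72hpa replicate 1, 60 without uninjured replicate 2 and 139 without 72hpa replicate 2, and it was 3 with the second libraries of 2 samples left out. At an unadjusted p under 0.01, 2480 (1.99%) were higher and 964 (0.775%) lower. Of the 1033 windows ranked higher in pax6 cells, 741 (71.7%) were also higher at 72hpa in all-tissue samples, beside 49.5% of all windows. Of the 879 ranked lower, 598 (68.0%) were also lower, beside 50.5%. The all-tissue median log2 fold change was 0.18 in the higher and −0.12 in the lower set. A smaller size than in pax6 cells is in part built in, because the windows were ranked on pax6 cells. Among promoter windows ranked higher, 90.4% were higher in all-tissue samples, beside 74.2% of all promoter windows. In the other distance classes with a gene, the shared direction covered 64.4% to 67.2% of the higher windows. Without uninjured pax6 replicate 2, the ranked windows shared their direction in 61.3% (higher) and 58.8% (lower).

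**Figure D5:**
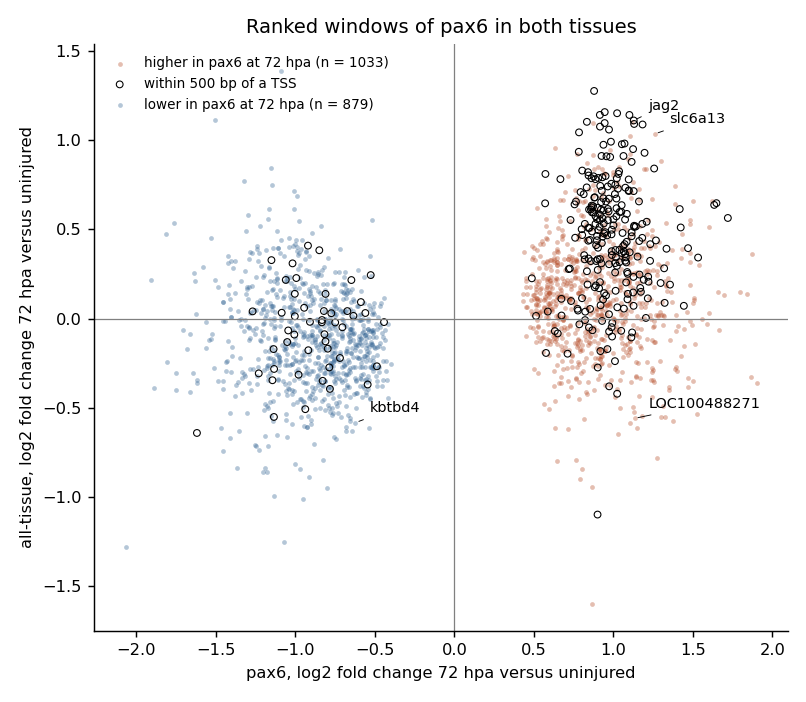
Log2 fold change of 72hpa versus uninjured in pax6 cells (horizontal axis) against all-tissue cells (vertical axis) for the 1033 higher and 879 lower ranked windows, 1 point a window, with black circles for windows within 500 bp of a TSS. The gap around 0 on the horizontal axis comes from the ranking, and 71.7% of the higher and 68.0% of the lower windows lie on the same side of 0 in all-tissue cells.

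Windows with an unadjusted p under 0.01 in the same direction in both tissues numbered 123 higher and 38 lower, and 8 and 4 had opposite directions. Of the 117 shared higher windows with a gene, 63 (53.8%) lay within 500 bp of a TSS, and of the 35 shared lower windows none did. In all-tissue samples, 1298 of the 2480 higher windows at this p and 66 of the 964 lower ones lay there, with or without a gene. The shared higher windows thus lay at promoters about as often as all higher windows of the all-tissue samples. Among the 123 higher windows 13 passed the adjusted test in all-tissue samples, and among the 38 lower windows 2 did. The share of counts within 500 bp of a TSS was 9.38% ± 0.41 (SD, n = 3) at 72hpa and 8.36% ± 0.32 (SD, n = 3) in uninjured all-tissue samples. Those groups did not overlap, and the exact permutation p of 0.1 (two-sided) is the smallest that 3 against 3 samples allow. Of the windows called in all-tissue samples, 88 of 105 higher (83.8%) and 25 of 31 lower (80.6%) had the same direction in pax6 cells. This compares with 50.02% and 49.98% of all windows, and the calls moved by library as given above. The median log2 fold changes of the called windows were 1.08 and −0.71 in all-tissue samples and 0.31 and −0.12 in pax6 cells. The larger all-tissue size is in part built in, because the windows were called there.

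Of the windows named above, 3 rose or fell in all-tissue samples by the adjusted test. The slc6a13 window rose, at 6.64, 7.5 and 7.09 CPM in uninjured all-tissue samples and 11.6, 15.7 and 16.6 CPM at 72hpa, with a log2 fold change of 1.03 ± 0.19 (SE, adjusted p = 0.0120). The jag2 window rose, at 4.93, 3.45 and 5.62 CPM and then 10.2, 7.24 and 13.6 CPM, with 1.11 ± 0.24 (SE, adjusted p = 0.0382). The kbtbd4 window fell, at 761, 982 and 812 CPM and then 599, 584 and 523 CPM, with −0.58 ± 0.13 (SE, adjusted p = 0.0498). With each all-tissue sample left out in turn, the slc6a13 window passed in 3 of 6 fits (adjusted p from 0.00573 to 0.167), the jag2 window in 1 of 6 (0.0208 to 0.433) and the kbtbd4 window in 0 of 6 (0.0926 to 0.433), and all kept their direction. The pax6 values of these windows were 1.26, 1.13 and −0.62, and their difference between the tissues had adjusted p-values of 0.977, 1 and 0.996, which does not show that the sizes were equal. The wdr91 and syncrip windows, in contrast, had all-tissue log2 fold changes of −0.22 ± 0.14 (SE, adjusted p = 0.760) and 0.23 ± 0.22 (SE, adjusted p = 0.887).

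Whether a window changed differently in the tissues was tested by an interaction term over 10 groups. No window passed an adjusted p under 0.05 (0 of 124342, smallest adjusted p 0.102), and 7045 (5.67%) had an unadjusted p under 0.05. At p under 0.01 there were 1553 (1.25%), of which 217 were windows ranked higher and 217 ranked lower in pax6 cells. The ranking used the pax6 side of this contrast, so that the interaction values of ranked windows are given as a description. The smallest p of the named windows was that of LOC100488271, which was higher at 72hpa in pax6 cells and had an all-tissue log2 fold change of −0.56 ± 0.19 (SE), from 10.3, 14.4 and 10.7 CPM in uninjured to 6.64, 10.3 and 7.11 CPM at 72hpa (adjusted p of the interaction = 0.102). The gap43 window 38039 bp from the TSS measured 19.0, 9.94 and 13.7 CPM in uninjured and 10.9, 7.66 and 10.7 CPM in 72hpa all-tissue samples (adjusted p of the interaction = 0.420). These windows lay in opposite directions in the tissues. So did the scaffold_3811 window, which was lower in pax6 cells and had an all-tissue log2 fold change of 0.41 ± 0.23 (SE, adjusted p = 0.710).

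The ranked windows were also read at the earlier times after amputation, in comparisons that share the uninjured samples with the one at 72hpa. The median log2 fold change against uninjured cells was 0.56 at 0hpa, 0.57 at 6hpa, 0.54 at 24hpa and 0.91 at 72hpa in the higher set. In the lower set it was −0.45, −0.47, −0.47 and −0.88. Because the ranking used 72hpa and the shared uninjured samples, a value away from 0 at the earlier times is in part built in. In the slc6a13 window the log2 fold changes were 0.87, 1.11, 0.96 and 1.26 from 0hpa to 72hpa, and in the sbno1 window −0.45, −0.57, −0.59 and −1.75. In the gap43 window 38039 bp from the TSS they were 0.10, −0.17 and −0.16 before 72hpa and 0.81 at 72hpa, and in the msx1 window 1.19, 0.98, 0.87 and 1.01.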

How the data were processed

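Per the study's methods and processing notes, Trim Galore trimmed the reads, Bowtie2 placed them on X. tropicalis genome version 9.0, duplicates were removed, MACS2 called peaks over merged alignments and featureCounts counted fragments. The deposited counts are raw fragment counts of 124349 windows in 31 libraries. The deposited summit scores are −log10 q-values given by MACS2. The signed distance to the TSS and the nearest gene (117398 windows) came from an annotation in the authors' table of comparisons, whose fold changes and p-values were not used.

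Libraries of 143 and 11 counts were left out, and second libraries of 2 all-tissue samples were summed with replicate 1 as labelled, which gave 27 samples (13 pax6, 14 all-tissue). Total counts ranged from 3069659 to 12130125 in pax6 and from 4401013 to 13256076 in all-tissue samples. Windows that reached 1 CPM in 2 or more samples were fitted in R 4.3.3 with edgeR 4.0.16 (TMM, robust quasi-likelihood F test), over the 13 pax6 samples in 5 groups and over all samples in 10 groups. Adjusted p-values are Benjamini-Hochberg values over all windows. SEs were derived as the absolute log2 fold change divided by the square root of the F statistic of that fit. DESeq2 1.42.0, the likelihood ratio test, other normalizations, filters and sets of samples were alternatives. Shares of counts were tested with exact permutation tests in scipy 1.17.1. The fit was also run on simulated counts. These held no sample that stood apart, so the run does not show how the fit handles a sample such as uninjured replicate 2.

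Named windows are the 12 per direction with the smallest p and separate groups, the window with the smallest p per direction in each gene list, and those nearest the TSS of pax6, sox2, meis1, pbx3 and the study's proliferation genes. The windows, lists and tests were chosen with earlier results of these data known. Of 282 LOC identifiers in ranked windows, 156 matched a RefSeq symbol. No genome sequence was used, so no window sequence, GC content or motif is given.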

Additional observations from a re-analysis of the deposited data

How the results depend on the processing

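The count of 0 windows called in pax6 cells became 11 with DESeq2 and 11 with the likelihood ratio test, and ran from 0 to 1129 over the fits without 1 sample. The 1912 ranked windows became 946 with DESeq2, 616 with only the 5 samples compared, and 876 without uninjured replicate 2 and 72hpa replicate 3 together, and ran from 717 to 6538 over the fits without 1 sample. That joint setting, and the leave-one-out fits of distance and of all-tissue direction, were added after seeing the data. They gave 16.9% to 27.3% of higher and 4.10% to 10.3% of lower windows within 500 bp of a TSS, and 12.4% and 11.3% jointly. Shared all-tissue direction ran from 61.3% to 72.7% (higher) and from 58.8% to 71.5% (lower), and was 60.0% and 60.6% jointly.

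The 136 windows called in all-tissue samples became 3 with the second libraries left out and 87 with the second 72hpa library summed with replicate 2, and ran from 3 to 139 without 1 sample. The calls of the difference between tissues ran from 0 to 82. The difference in the share of counts ran from 0.0773 to 1.30 percentage points within 500 bp of a TSS, and from −0.189 to 0.295 beyond 50 kb, where it reversed without uninjured replicate 1. The cause of these shifts was not tested. Other normalizations, filters and the 10-group fit left 0 windows called in pax6 cells.

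With the replicate number as a block, 0 windows were called and 1926 ranked in pax6 cells, of which 726 higher and 654 lower were ranked without it. The block gave 360 calls in all-tissue samples and 2 of the difference between tissues. The labels do not say that a number marks a shared batch, so that the samples share only a number. In pax6 cells, where the 2 uninjured samples give 1 independent comparison, the deviations of same-numbered samples correlated at −0.01 and −0.05, and in the 3 all-tissue pairs at −0.01, −0.004 and 0.01. The median window held 19 to 49 counts, and how far depth limits the calls was not tested.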
